A study of Mus musculus with 2 samples.

Results

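The genes described here are 58 genes that mark phases of the cell cycle, out of 26897 genes that occur in both single-library count tables of the series. They were taken from a list that names 20 genes of S phase, when DNA is copied, and 38 genes of G2 and mitosis (G2/M), and all 58 were found in both tables. The data are droplet RNA-seq counts of single epithelial cells of the mouse oviduct, from 2 libraries. One is from adult C57BL/6 mice at estrus and the other from C57BL/6 mice at P4 (postnatal day 4), for which no stage of the estrous cycle applies. For both, live cells were sorted with antibodies to Epcam, an epithelial surface protein, and CD45, a leukocyte surface protein. The library kit was 10x Chromium 3' V2, which counts transcripts as unique molecular identifiers (UMI). The number of mice in each library is not given in the sources used here. The study's question was whether the distal and proximal oviduct are lined by separate lineages, and the comparisons below describe age, the authors' deposited clusters and single cells.

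A cell that enters S phase loads and fires the MCM helicase at replication origins and makes nucleotides for the new DNA, and many of the genes for these steps are switched on by E2F factors. Genes for spindle assembly, chromosome condensation and division are switched on later, many of them through CCAAT boxes and a cell cycle homology region (CHR) near the start of transcription. In the oviduct, epithelial cells divide while the young tube grows, secretory-type cells serve as progenitors, and multiciliated cells are post-mitotic. Multiciliated precursors reuse parts of the mitotic machinery, Plk4 and Cdk1 among them, to make many centrioles without dividing, and mature multiciliated cells build axonemes from tubulins such as Tubb4b.

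The promoters of 5 members are shown as examples of how the members differed between the ages: Top2a of the S list and Ccnb2 and Cdc20 of the G2/M list, each with 0 adult UMI at equal depth, Dut, an S gene with a smaller difference, and Tubb4b, the member that went the other way. Each is the window of 300 bases, 250 before to 50 after a start given by RefSeq, on GRCm38.p6, printed 5′ to 3′ on the gene's own strand. For Dut that start lies inside the gene as annotated by GENCODE, which begins at chr2:125247190. The Dut window begins after that base, so no sequence before it was searched. Capitals mark the CHR, searched as the letters TTTGAA on this strand, which read on the opposite strand show as TTCAAA in the printed window, and likewise the CCAAT box, which read on the opposite strand shows as ATTGG. No match overlaps another. The Top2a window lies at chr11:99024140-99024439 on the minus strand, the Dut window at chr2:125247265-125247564 on the plus strand, the Ccnb2 window at chr9:70421505-70421804 on the minus strand, the Cdc20 window at chr4:118437294-118437593 on the minus strand and the Tubb4b window at chr2:25224653-25224952 on the minus strand.
Top2a: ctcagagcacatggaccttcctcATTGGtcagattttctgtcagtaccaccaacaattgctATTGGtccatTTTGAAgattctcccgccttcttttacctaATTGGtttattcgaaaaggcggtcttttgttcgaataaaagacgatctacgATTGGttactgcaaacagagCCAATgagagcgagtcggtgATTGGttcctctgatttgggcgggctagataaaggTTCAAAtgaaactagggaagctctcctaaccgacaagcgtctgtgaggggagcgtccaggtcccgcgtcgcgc
Dut: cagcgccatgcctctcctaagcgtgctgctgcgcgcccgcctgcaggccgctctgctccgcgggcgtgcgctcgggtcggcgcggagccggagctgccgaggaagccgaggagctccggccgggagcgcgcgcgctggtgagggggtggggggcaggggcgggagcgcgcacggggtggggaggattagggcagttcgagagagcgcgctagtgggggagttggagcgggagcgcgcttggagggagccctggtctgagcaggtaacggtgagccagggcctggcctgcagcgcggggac
Ccnb2: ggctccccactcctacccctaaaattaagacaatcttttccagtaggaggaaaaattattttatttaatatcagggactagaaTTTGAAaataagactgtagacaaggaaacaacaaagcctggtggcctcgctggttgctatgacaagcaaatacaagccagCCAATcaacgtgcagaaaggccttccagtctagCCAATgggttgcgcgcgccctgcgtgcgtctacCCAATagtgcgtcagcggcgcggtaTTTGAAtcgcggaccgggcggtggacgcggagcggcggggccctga
Cdc20: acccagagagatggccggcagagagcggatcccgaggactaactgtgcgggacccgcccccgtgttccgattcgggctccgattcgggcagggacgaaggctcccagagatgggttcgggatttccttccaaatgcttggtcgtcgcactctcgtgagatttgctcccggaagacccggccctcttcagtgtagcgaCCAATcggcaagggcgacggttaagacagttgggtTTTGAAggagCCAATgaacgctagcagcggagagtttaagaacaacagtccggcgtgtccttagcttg
Tubb4b: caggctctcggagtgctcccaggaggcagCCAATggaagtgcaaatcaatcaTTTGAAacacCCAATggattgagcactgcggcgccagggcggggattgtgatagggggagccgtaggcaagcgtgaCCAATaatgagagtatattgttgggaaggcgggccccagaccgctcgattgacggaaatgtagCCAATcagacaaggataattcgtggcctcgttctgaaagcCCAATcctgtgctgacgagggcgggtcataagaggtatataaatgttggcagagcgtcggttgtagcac

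The windows of Top2a, Ccnb2 and Cdc20 held a CHR close to the annotated start, with its first base at -23, 4 and -18, counting the start base as 0. Top2a and Ccnb2 also held a CHR farther out, at -179 and -167. Top2a, Ccnb2 and Cdc20 held 6, 3 and 2 CCAAT matches. The window of Tubb4b held 1 CHR, at -198, and 5 CCAAT matches. The Dut window, which lies inside the gene, held neither motif. Over all members, 51 of 58 matched the RefSeq promoter table by symbol, 34 G2/M genes with 35 promoters and 17 S genes with 20 promoters. CHR was in 26 of 35 G2/M promoters (74.3%) and in 4 of 20 S promoters (20%), against 17.9% of the 32851 promoters in the table. CCAAT was in 77.1% of G2/M promoters and 70.0% of S promoters, against 37.4% of all. Letters of an E2F site (TTTGGCG, or with other middle letters TTTCGCG, or, as the last form searched, TTTCCCG, on either strand) were in 5 of 35 G2/M promoters (14.3%) and 7 of 20 S promoters (35.0%), against 5.58% of all. CHR and CCAAT stood together in 65.7% of G2/M promoters and 15% of S promoters, against 6.95% of all. A match is a description of the letters in these windows and says nothing of what is bound there.

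The adult table has 807 columns, in which 401 barcodes occur under both of its prefixes, so each of 406 distinct adult barcodes was counted once, from the first prefix. Members had 1799 UMI in the repeated barcodes under the first prefix and 1796 under the second. No barcode was shared between the ages. Over the shared genes the adult library held 1376605 UMI (median 3177.5 per cell, 487 to 15940) and the P4 library 1839488 UMI in 263 cells (median 6576, 1197 to 20232). To compare at 1 depth, every cell that reached 1000 UMI was thinned to that number, which kept 318 adult cells (88 were too shallow) and all 263 P4 cells. A level is pooled UMI per 10000 UMI, brackets hold 95% intervals that cover counting error only, and no p-value is given, because each age is 1 library and cells are not replicates. Age cannot be told apart from library, estrous stage, sort, cell composition, depth or gene annotation, which also differ between the tables (27998 genes in the adult table, 53573 in the P4 table). Neither can fewer cells that use a gene be told apart from less RNA of it per cell in a pooled level.

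Both gene groups were lower in the adult library than at P4, and the G2/M genes by more, apart from Tubb4b. The summed level of the 20 S genes was 3.02 UMI per 10000 in adult cells (2.45 to 3.69, 96 UMI) and 9.35 in P4 cells (8.22 to 10.6, 246 UMI), a level 3.10-fold lower in the adult (2.44 to 3.96). The 37 G2/M genes other than Tubb4b summed to 3.36 in adult cells (2.76 to 4.07, 107 UMI) and 21.2 in P4 cells (19.5 to 23.0, 557 UMI), 6.29-fold lower in the adult (5.11 to 7.82). Tubb4b alone was 2.74-fold higher in adult cells (2.11 to 3.59), at 7.92 against 2.89 UMI per 10000. With Tubb4b kept, the G2/M sum was 11.3 in adult cells and 24.1 in P4 cells, a log2 fold of -1.09. Markers of multiciliated cells moved with the ages too: 10 markers summed to 79.5 UMI per 10000 in the adult library (78.0 to 81.0) and 6.38 at P4 (6.02 to 6.76), and their part in the difference between the ages was not tested, while Tubb4b is given by cluster further on.

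Gene by gene, 11 of the 58 members were measured at the thinned depth, that is, seen in at least 10% of cells of either age or with at least 20 pooled UMI in the higher age. Of these 9 were at least 2-fold lower in adult cells, beside 12.8% of all 2900 measured genes, 1 was at least 2-fold higher, beside 24.3%, and 1 lay within 2-fold. With no thinning, 49 members were measured and 43 were at least 2-fold lower in the adult library, beside 9.21% of 9254 genes. There 1 was higher, beside 12.6%, and 5 lay within 2-fold. The median log2 fold over all 58 members was -1.45 in the full counts, against -0.04 over all measured genes. Since members with a low adult level could pass the filter through their P4 level alone, these counts describe the members and are not independent of the filter. In the full counts 57 of 58 members had the lower level in the adult library, and the interval of the ratio lay below 1 for 49 of the 50 members with at least 20 UMI in all, beside 24.7% of 10480 genes, and above 1 for Tubb4b, beside 26.5%.

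**Figure D1:**
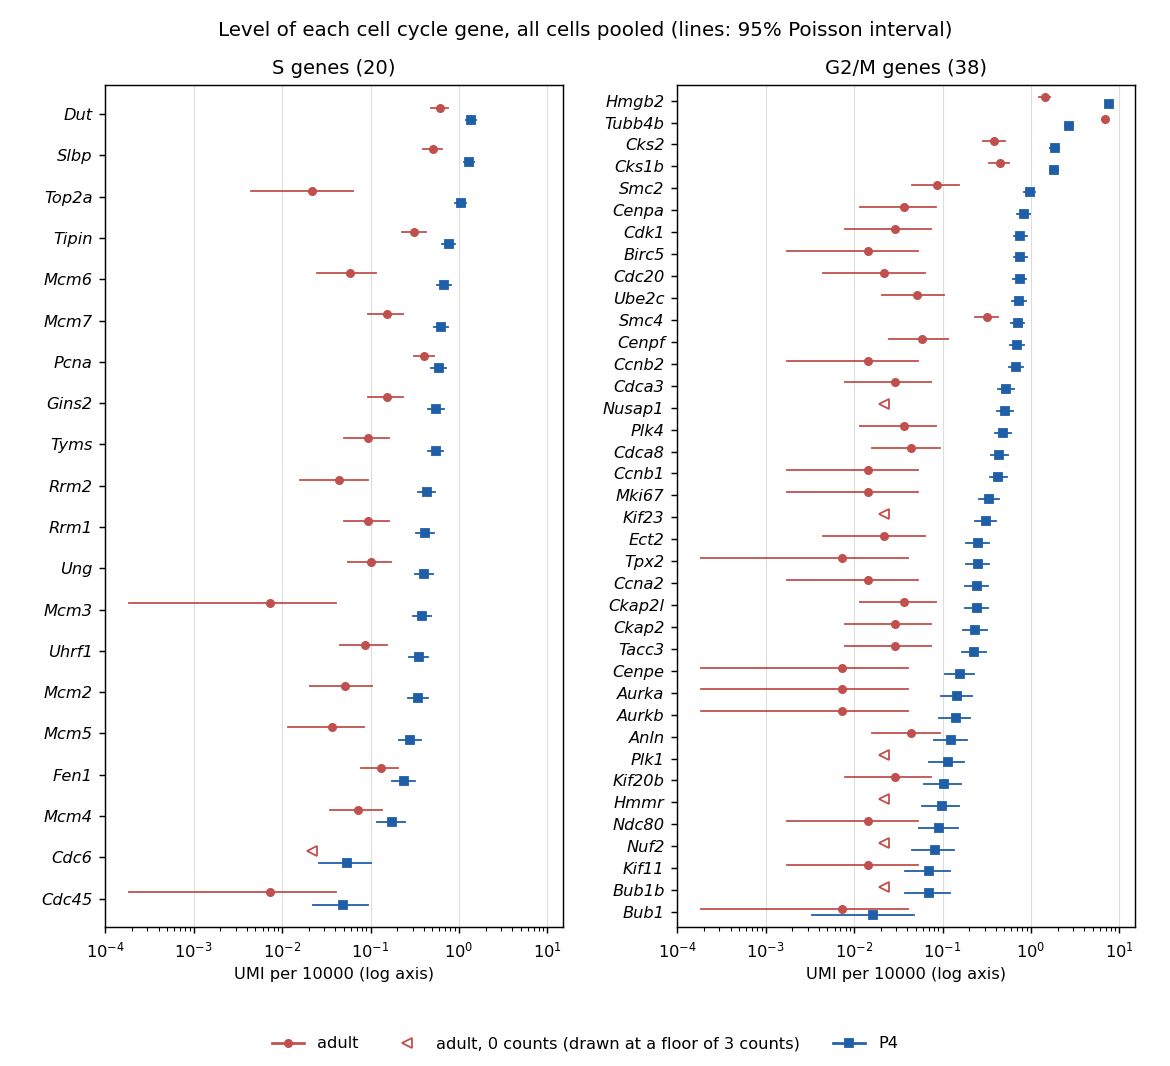
Level of each member in UMI per 10000 (log axis) with all cells pooled at full depth, S genes in the left panel and G2/M genes in the right one, ordered by their P4 level. Circles are the adult library, squares the P4 library, lines 95% Poisson intervals, and open triangles adult genes with 0 UMI drawn at a floor of 3 counts. Adult points lie left of P4 points for every gene but Tubb4b, at 6.84 in the adult library and 2.69 at P4.

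Of the S genes, the helicase subunits were among the farthest apart. Mcm6 had 8 UMI in 406 adult cells and 126 UMI in 263 P4 cells at full depth, a level 11.8-fold lower in the adult (5.80 to 27.9). Mcm3 had 1 adult UMI and 71 P4 UMI, 53.1-fold lower with a wide interval (9.23 to 2128). Mcm2, Mcm5 and Mcm7 were 6.84-fold, 7.78-fold and 4.10-fold lower, and Mcm4, the smallest difference among the helicase genes, was 2.39-fold lower (1.15 to 5.46). Gins2, a subunit of the complex that activates the helicase, had 21 adult UMI and 102 P4 UMI and was 3.63-fold lower (2.26 to 6.12). Cdc6 and Cdc45, which load and activate the helicase, were too sparse to compare, with 0 and 1 adult UMI against 10 and 9 P4 UMI.

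Genes for nucleotide supply spread over a wide range. Rrm2, the regulated subunit of ribonucleotide reductase, was 9.98-fold lower in the adult library (4.39 to 28.0), its partner Rrm1 4.43-fold lower (2.45 to 8.70) and Tyms, which makes thymidylate, 5.76-fold lower (3.22 to 11.2). Dut, which breaks down dUTP, kept more of its level: 17 UMI in thinned adult cells and 36 UMI in thinned P4 cells, 2.56-fold lower (1.40 to 4.86), and 84 against 252 UMI at full depth, 2.25-fold lower (1.75 to 2.91). Slbp, which binds histone mRNA, lay within 2-fold after thinning on the scale with a pseudocount, with 19 adult and 33 P4 UMI (log2 fold -0.96). Without the pseudocount Slbp was 2.10-fold lower after thinning (1.16 to 3.91). At full depth it had 70 adult and 238 P4 UMI, 2.54-fold lower (1.94 to 3.37).

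Genes of the replication fork and of repair differed by varied amounts. Pcna, the sliding clamp, had 56 adult UMI and 109 P4 UMI at full depth, 1.46-fold lower (1.05 to 2.05). At that depth Pcna was seen in 11.6% of adult cells and 27.0% of P4 cells. After thinning Pcna had 15 adult and 16 P4 UMI, 1.29-fold lower with an interval that included 1 (0.597 to 2.80). It was then seen in 4.40% of adult cells and 5.70% of P4 cells. Fen1, the flap endonuclease, was 1.83-fold lower at full depth (1.04 to 3.36) and Tipin, a fork protection factor, 2.45-fold lower (1.73 to 3.54). After thinning the intervals of both included 1. Fen1 then had 5 adult and 3 P4 UMI, 1.38-fold higher in the adult (0.268 to 8.88). Tipin had 11 and 15 UMI, 1.65-fold lower (0.708 to 3.97). Uhrf1, which passes DNA methylation to the new strand, and Ung, which removes uracil from DNA, were 4.05-fold and 3.96-fold lower at full depth. Top2a, the topoisomerase that untangles sister chromosomes, is on the S list and had 0 UMI in thinned adult cells and 21 in thinned P4 cells, at least 8.46-fold lower against a floor of 3 counts over the adult cells. At full depth Top2a had 3 adult UMI in 3 cells and 194 P4 UMI in 71 cells, a ratio of 48.4 (16.3 to 237). Without Top2a the S sum was 3.02 in adult cells and 8.56 in P4 cells, 2.83-fold lower (2.22 to 3.64).

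Of the G2/M genes, the cyclins and their kinase were close to 0 in the adult library. Ccnb2, a B-type cyclin, had 0 UMI in 318 thinned adult cells and 30 UMI in 263 thinned P4 cells, at least 12.1-fold lower in the adult. Ccnb1 and Ccna2, the other mitotic cyclins listed, had 2 adult UMI each against 79 and 45 P4 UMI at full depth. Cdk1, the kinase they activate, had 4 adult UMI and 140 P4 UMI, 26.2-fold lower (10.0 to 97.5). The small Cdk subunits Cks1b and Cks2 differed less: Cks1b had 14 adult and 44 P4 UMI after thinning, 3.80-fold lower (2.04 to 7.51), and Cks2 had 11 and 43, 4.73-fold lower (2.40 to 10.2).

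Genes for the steps of mitosis itself were lower in the same way. Cdc20, which activates the anaphase-promoting complex, had 0 UMI in thinned adult cells and 21 in thinned P4 cells, at least 8.46-fold lower, and Ube2c, a ubiquitin-conjugating enzyme of the same complex, had 7 adult and 135 P4 UMI at full depth, 14.4-fold lower (6.82 to 36.6). At the centromere, Cenpa, the centromeric histone H3, had 1 adult and 21 P4 UMI after thinning, a ratio of 25.4 (4.08 to 1050.1), and Cenpf was 11.97-fold lower at full depth (5.90 to 28.3). Birc5 and Cdca8, subunits of the chromosomal passenger complex, were 52.0-fold (14.1 to 434, from 2 adult UMI) and 10.1-fold lower (4.45 to 28.3). Among spindle genes, Nusap1, which bundles spindle microtubules, had 0 adult and 93 P4 UMI, at least 23.2-fold lower, and Kif23, a kinesin of the central spindle, 0 and 57 UMI, at least 14.2-fold lower. Mki67, the coat protein of mitotic chromosomes, had 2 adult UMI and 62 P4 UMI.

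Chromatin genes and the centriole kinase differed by varied amounts. Smc2, a condensin subunit, had 5 adult and 20 P4 UMI after thinning, 4.84-fold lower (1.76 to 16.5). At full depth Smc2 was 11.1-fold lower, with 12 adult and 178 P4 UMI (6.20 to 21.9), and its partner Smc4 2.21-fold lower, with 44 and 130 UMI (1.56 to 3.19). After thinning Smc4 had 11 adult and 16 P4 UMI, 1.76-fold lower with an interval that included 1 (0.767 to 4.19). Hmgb2, a chromatin protein, had 51 UMI in thinned adult cells and 178 UMI in thinned P4 cells, 4.22-fold lower (3.08 to 5.88), and it was seen in 29.3% of adult and 87.1% of P4 cells at full depth. Plk4, the kinase that starts centriole duplication, had 5 adult and 89 P4 UMI, 13.3-fold lower (5.50 to 42.0). Beside Cdc6 and Cdc45 of the S list, the members too sparse to measure at either depth were Bub1, Bub1b, Kif11, Kif20b, Hmmr, Nuf2 and Ndc80, each with fewer than 20 P4 UMI.

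Other genes of the same steps, taken from lists that share no gene with the 58 members unless stated, were compared at full depth. Of 43 other replication genes, 34 were measured, 21 were at least 2-fold lower in the adult library, beside 9.21% of all measured genes, 0 higher, beside 12.6%, and 13 within 2-fold. Hells, a chromatin remodeler, had 7 adult and 142 P4 UMI, Lig1, the ligase that joins Okazaki fragments, 13 and 338 UMI, and Tk1, thymidine kinase, 0 and 52 UMI. Gins1, a partner of Gins2, had 3 and 373 UMI; because the 2 tables were counted on different annotations, this value is uncertain. Of 44 other mitosis genes found in both tables, 32 were measured, of which 19 were lower, 0 higher and 13 within 2-fold. Among them Spc25 and Spc24, kinetochore subunits, had 9 adult UMI each against 138 and 126 P4 UMI, Lmnb1, a lamin, had 11 and 141 UMI, and Stmn1, a tubulin-binding protein, 147 and 903 UMI.

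Histone genes and regulators of entry and exit were mixed. Of 12 replication-dependent histone genes 5 were measured, with Hist1h2ap (15 adult and 533 P4 UMI) and Hist1h2ae (1 and 29) lower in the adult library and Hist1h1c (292 and 68) and Hist2h2ac (43 and 2) higher. Like that of Gins1, the value of Hist2h2ac is uncertain, since it may depend on the annotation of each table. As background, these libraries prime on poly-A tails, which most replication-dependent histone transcripts lack. Of 19 entry and exit genes, all measured, 5 were lower in the adult library (Ccnd2, Cdk2, Cdk4, Cdkn1c and Mycn), 0 were higher and 14 lay within 2-fold. Beside both the histone list and this one, 9.21% of all measured genes were at least 2-fold lower in the adult library and 12.6% higher. Ccnd2, a D-type cyclin, had 58 adult and 530 P4 UMI, and Cdkn1c, a Cdk inhibitor, 20 and 238.

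By cluster, the low adult levels did not depend on which adult cluster was taken. After thinning, the S sum lay between 1.43 and 3.89 UMI per 10000 in adult clusters 0, 1, 3, 4 and 5, against 9.17 and 9.68 in P4 clusters 0 and 1. The G2/M sum without Tubb4b lay between 1.67 and 4.32 in the adult clusters, against 21.9 in P4 cluster 0 and 19.9 in P4 cluster 1. Intervals of the adult clusters were wide where cells were few (18 thinned cells in cluster 4), and none of the adult intervals of the G2/M sum overlapped those of the P4 clusters. For the S sum, the interval of adult cluster 4 (1.56 to 8.01) overlapped those of both P4 clusters (7.78 to 10.7 and 7.81 to 11.9).

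**Figure D2:**
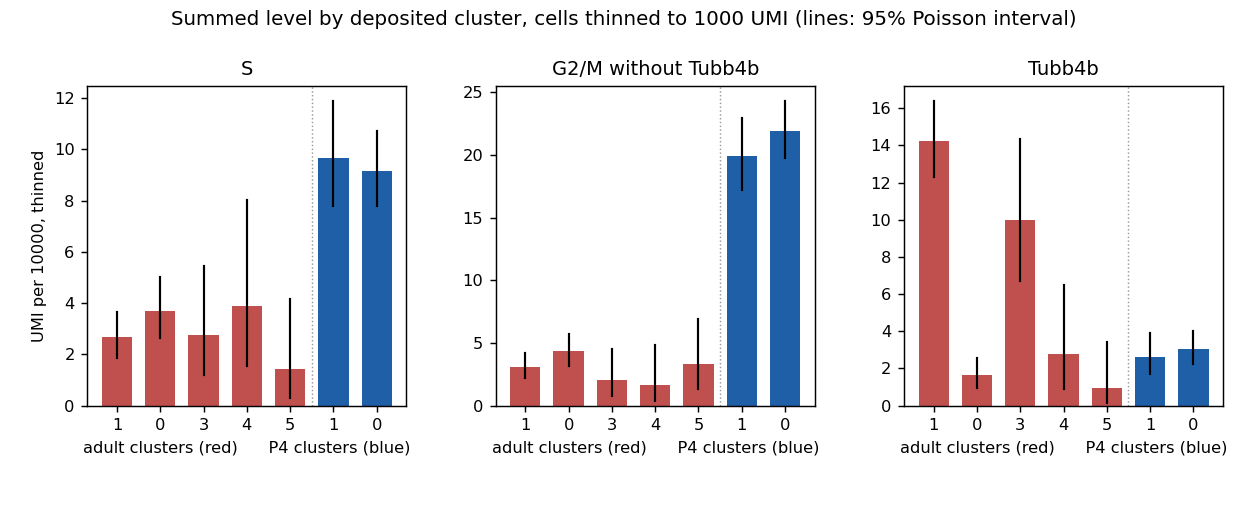
Summed level in UMI per 10000 of the S genes, of the G2/M genes without Tubb4b, and of Tubb4b alone, by the authors' cluster, in cells thinned to 1000 UMI. Red bars are adult clusters and blue bars P4 clusters, with 95% Poisson intervals as lines. S and G2/M bars are low in every adult cluster, and Tubb4b is high in adult clusters 1 and 3, at 14.2 and 10.0.

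Between adult clusters 1 and 0, Tubb4b was higher in the one with more multiciliated marker UMI. Adult cluster 1 had 160 UMI per 10000 of the 10 multiciliated markers and adult cluster 0 had 2.82, and Tubb4b was 14.2 in cluster 1 (198 UMI) and 1.62 in cluster 0 (18 UMI) after thinning, 8.78-fold higher in cluster 1 (5.42 to 15.1). Marker sums were not taken for adult clusters 3, 4 and 5, whose Tubb4b levels at full depth were 13.0 (11.03 to 15.2), 1.67 and 1.36. This 1 gene set the direction of the G2/M sum between the adult clusters, which was 17.3 in cluster 1 and 5.95 in cluster 0 with Tubb4b and 3.09 in cluster 1 (2.24 to 4.17) and 4.32 in cluster 0 (3.19 to 5.73) without it. The S sum was 2.66 in cluster 1 and 3.69 in cluster 0, a ratio of 0.721 (0.449 to 1.15). At full depth 9 members were measured between these clusters: Tubb4b was at least 2-fold higher in cluster 1, beside 23.6% of 5507 genes, and Cks1b at least 2-fold lower, beside 12.7%. Cks1b had 11 UMI in cluster 1 and 35 in cluster 0, a level 3.67-fold lower (1.82 to 8.01), and Slbp had 18 and 33 UMI, 2.11-fold lower (1.16 to 3.99). For Pcna, Dut, Tipin, Smc4, Cks2 and Hmgb2 the interval of the ratio included 1.

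Between the P4 clusters the S sum differed by less than its counting error, and the G2/M sum was lower in cluster 1 at full depth. The S sum was 9.68 in P4 cluster 1 (92 UMI in 95 cells) and 9.17 in P4 cluster 0 (154 UMI in 168 cells), a log2 fold of 0.08 with an interval of the ratio from 0.807 to 1.38. The G2/M sum, with Tubb4b, was 22.5 in cluster 1 and 24.9 in cluster 0, a ratio of 0.903 (0.762 to 1.07) after thinning and 0.780 (0.731 to 0.831) at full depth. The thinned value depended on the draw: another random draw gave a log2 fold of -0.39 (-0.64 to -0.14) where the first gave -0.15 (-0.39 to 0.09), and thinning to 2000 UMI gave -0.38 (-0.56 to -0.20). In the first draw the log2 fold was -0.14 without Tubb4b (-0.40 to 0.12). It was -0.03 (-0.28 to 0.21) without 6 cells, all of cluster 0, that had over 30 multiciliated marker UMI per 10000. No member of the 46 measured at full depth differed by 2-fold on the scale with a pseudocount, beside 2.39% of 7702 genes lower and 1.75% higher. After thinning 6 members were measured and 0 differed by 2-fold, beside 4.73% of 1671 genes lower and 6.28% higher. Of 49 members with at least 20 UMI, the interval lay below 1 for 11, beside 7.28% of 8451 genes, and above 1 for 1, beside 7.29%. Nusap1 had 16 UMI in cluster 1 and 77 in cluster 0, a ratio of 0.455 (0.248 to 0.787). Tubb4b had 96 and 398 UMI (0.528, 0.418 to 0.662) and Ckap2l, a spindle protein, 7 and 38 UMI (0.403, 0.152 to 0.914). Plk4 had 17 and 72 UMI, a ratio of 0.517 (0.286 to 0.886), and Smc4 26 and 104 UMI, 0.547 (0.342 to 0.848). Mcm6 was the member with an interval above 1, with 51 and 75 UMI and a ratio of 1.49 (1.02 to 2.15).

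Some genes of centriole amplification differed between the P4 clusters. Of 19 listed genes found in both tables, Plk4 among them, 14 were measured, 10 lay within 2-fold and 4 were at least 2-fold lower in P4 cluster 1 than in P4 cluster 0, beside 2.39% of all measured genes: Mcidas and Myb, regulators of multiciliated fate, Ccno, a cyclin-like protein of the same program, and Cdc20b, a relative of Cdc20. Mcidas had 1 UMI in cluster 1 and 40 in cluster 0, Myb 9 and 117, Ccno 9 and 73, and Cdc20b 0 and 35. Of 31 measured other replication genes and 25 measured other mitosis genes, 0 differed by 2-fold between the P4 clusters. Of 17 measured entry and exit genes 16 lay within 2-fold and 0 were lower in cluster 1, beside 2.39% of all measured genes. The other, Ccnd2, was at least 2-fold higher, beside 1.75%. Ccnd2 had 298 UMI in cluster 1 and 232 in cluster 0, 2.81-fold higher in cluster 1 (2.36 to 3.35).

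In single cells, 3 or more G2/M UMI were found more often in P4 cells than in adult cells. After thinning, 69 of 263 P4 cells had at least 3 UMI of G2/M members other than Tubb4b (26.2%, Clopper-Pearson 21.0 to 32.0), against 4 of 318 adult cells (1.26%, 0.344 to 3.19). In adult cluster 1, whose multiciliated markers mark post-mitotic cells, the share was 2 of 139 (1.44%, 0.175 to 5.10). At least 1 such UMI was found in 25.8% of adult cells, in 25.9% of adult cluster 1 and in 80.2% of P4 cells, so a single UMI separates cells poorly. The number of 3 UMI is a point on a range and not a cell type: 57 P4 cells had 2 UMI, 32 had 3, and the highest had 15. The share was 23.2% in P4 cluster 1 (15.1 to 32.9) and 28.0% in P4 cluster 0 (21.3 to 35.4), with intervals that overlap. The median depth was 7208 UMI in the 69 P4 cells and 6346 UMI in the other 194 before thinning.

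**Figure D3:**
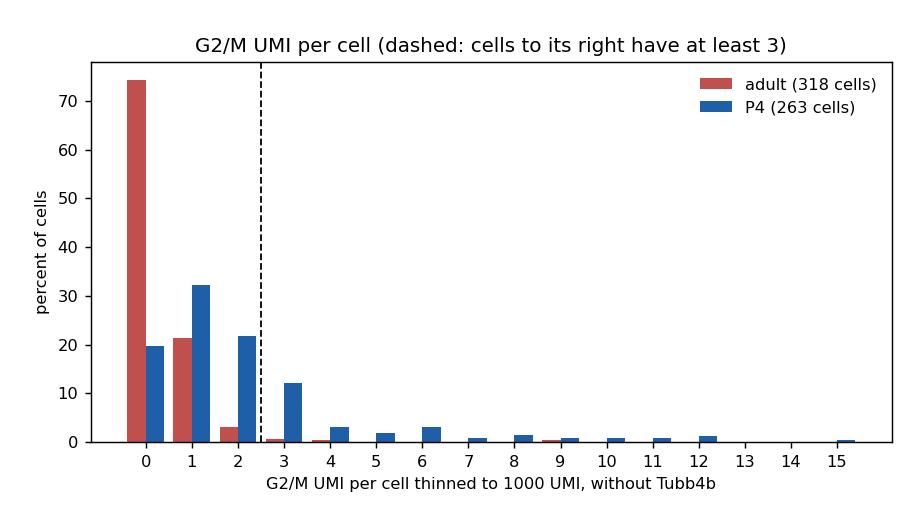
Percent of cells (vertical axis) by the number of G2/M UMI without Tubb4b in a cell thinned to 1000 UMI (horizontal axis), adult cells as red bars to the left of P4 cells as blue bars. Cells right of the dashed line, with at least 3 UMI, make up 1.26% of adult and 26.2% of P4 cells.

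A single adult cell stood out. It belonged to adult cluster 0 and had 9 thinned G2/M UMI, where the next highest adult cell had 4. At full depth its 4310 UMI included UMI of 14 G2/M members other than Tubb4b and of 0 S members. It held 29 of the 455 G2/M UMI without Tubb4b of the adult library, among them 3 of the 4 adult UMI of Ckap2, a spindle protein, and the only adult UMI of Tpx2, which activates Aurora A kinase at the spindle. It also had 21 UMI of Ovgp1, the oviductal glycoprotein of secretory cells, and 11 of Epcam.

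The members were then followed across the P4 cells: for each gene, its full-depth level was compared between cells with at least 3 thinned UMI of the other G2/M members and the rest, leaving the gene itself and Tubb4b out of the choice of cells. All 31 G2/M members with at least 20 P4 UMI had a ratio whose interval lay above 1, beside 7.33% of 8402 genes that are no members, and 27 of them were at least 2-fold higher on the scale with a pseudocount, beside 1.25%. Their median ratio was 3.74, from 1.98 for Cks1b to 5.93 for Plk1, a mitotic kinase. Since each gene was left out of its own choice, the set of high cells could differ from gene to gene. Birc5 had 93 UMI in 69 high cells and 46 UMI in 194 others (4.79, 3.33 to 6.98). Each in its own sets, Ccnb2 had 78 and 48 UMI (4.24, 2.92 to 6.205) and Cenpf 82 and 46 UMI (4.47, 3.08 to 6.56). Cdk1 (62 and 78 UMI, 2.002, 1.41 to 2.83) and Plk4 (40 and 49 UMI, 2.10, 1.35 to 3.25) had lower ratios.

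The S genes were compared between the 69 P4 cells with at least 3 thinned UMI of all G2/M members but Tubb4b and the other 194. Of 18 S members with at least 20 UMI, 1 was at least 2-fold higher on the scale with a pseudocount in the cells chosen by G2/M genes, Top2a at a ratio of 4.02 (2.98 to 5.45). The median ratio was 1.22, and without Top2a the ratios ran from 0.690 for Mcm3 to 2.08 for Rrm1. For 15 of the 18 the interval included 1. For 3, Top2a among them, it lay above 1, beside 7.33% of genes that are no members. Of thinned UMI, 57.1% of those of Top2a lay in these cells, but 25% of those of Dut and 27.3% of those of Slbp, where the cells make up 26.2% of P4 cells. Cells were also chosen the other way, by at least 2 thinned UMI of S members other than Top2a. There 5 of 18 S members were at least 2-fold higher on that scale (Mcm7, Pcna, Rrm2, Ung and Top2a) and 0 of 31 G2/M members, beside 0.774% of other genes. The median ratio was 2.21 for the S members, from 1.14 for Mcm2 to 4.46 for Rrm2. For the G2/M members the median ratio was 1.32, from 0.5001 for Cenpa to 2.91 for Aurkb. The interval of the ratio lay above 1 for 15 of 18 S members and 6 of 31 G2/M members, beside 4.45% of other genes. Cenpa, at 0.5001 (0.283 to 0.831), and Tubb4b, at 0.539 (0.403 to 0.708), were lower in those cells. Top2a was high by both choices, at 3.89 (2.90 to 5.21) in the cells chosen by S genes. Being high for S genes was about as frequent among cells high for G2/M genes, 14 of 69 (20.3%, 11.6 to 31.7), as among the others, 34 of 194 (17.5%, 12.5 to 23.6).

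**Figure D4:**
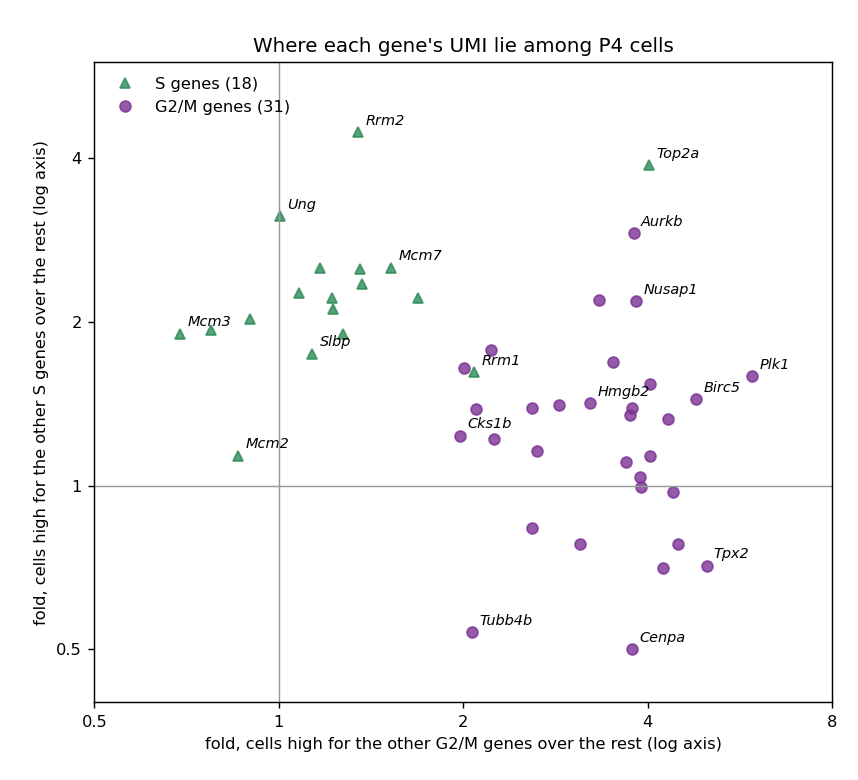
Each point is a member with at least 20 UMI in the P4 library, S genes as triangles and G2/M genes as circles. The horizontal axis is the fold of its level in P4 cells high for the other G2/M genes over the rest, and the vertical axis the fold in cells high for the other S genes, both on log axes. G2/M genes lie at 1.98 or farther right, most S genes lie left of 2 and above 1, and Top2a, at 4.02 and 3.89, is high on both axes.

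Genes of the other lists, which hold no member but Plk4, were compared between the 69 P4 cells high for G2/M genes and the rest. Of 38 measured other mitosis genes, 17 were at least 2-fold higher in the 69 cells, beside 1.86% of 8122 measured genes, 0 lower, beside 0.517%, and 21 within 2-fold. Nek2, a centrosomal kinase, had 25 UMI in these cells and 8 in the others, a ratio of 7.41 (3.24 to 19.0), and Spc24 had 71 and 55 UMI, 3.06 (2.12 to 4.44). Of 34 other replication genes 32 lay within 2-fold and 2 were higher, Pola1, the catalytic subunit of DNA polymerase alpha, at 2.52 (1.499 to 4.26), and Dtl, which targets Cdt1 for destruction, at 2.53 (1.48 to 4.36). Hist1h2ap had 401 UMI in the 69 cells and 132 in the others, a ratio of 7.20 (5.90 to 8.84). Of 16 measured centriole amplification genes 9 lay within 2-fold and 7 were higher, with Cdc20b at 5.17 (2.44 to 11.7), Mcidas at 4.11 (2.10 to 8.35), Myb at 3.49 (2.41 to 5.08) and Ccno at 3.35 (2.11 to 5.36). Plk4 is among the 7, but it is a member whose own UMI helped choose these cells. With its own UMI left out of the choice, Plk4 was not 2-fold higher on the scale with a pseudocount. Of 18 entry and exit genes 1 was higher, Cdkn2c, and 17 were within 2-fold.

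Multiciliated markers also moved with these cells. The 10 markers, all detected, summed to 11.01 UMI per 10000 in the 69 cells high for G2/M genes (10.2 to 11.9) and 4.43 in the other 194 (4.07 to 4.81). They were highest in 6 cells of P4 cluster 0 with more than 30 marker UMI per 10000, the lowest at 43.4 and the highest of the remaining cells at 25.7, and 3 of the 6 were among the 69. Without the 6 cells the markers summed to 4.47 in the cells high for G2/M genes and 1.91 in the rest, and 27 of 30 G2/M members with at least 20 UMI were at least 2-fold higher there, beside 0.9% of other genes, with a median ratio of 3.73. Secretory markers summed to 19.7 in the high cells (18.5 to 20.9) and 22.1 (21.3 to 22.9) in the others, epithelial markers to 28.1 (26.7 to 29.5) and 30.8 (29.9 to 31.8), and fibroblast markers to 6.63 and 6.96. Endothelial markers were low in both sets, at 0.696 in the high cells (0.493 to 0.956) and 0.348 in the others (0.254 to 0.465), with intervals that do not overlap. The highest single cell was at 23.5 in the high set and 4.30 in the others, and the intervals do not cover such spread between cells. Leukocyte markers summed to 0.403 and 0.201, with the highest single cells at 19.4 and 23.6. Ptprc, which encodes CD45, was at 0 UMI in both sets. What part these markers have in the G2/M levels was not tested.

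The P4 cells with multiciliated markers still had G2/M transcripts. In the 6 cells the G2/M sum without Tubb4b was 34.2 UMI per 10000 at full depth and 23.3 in the other P4 cells, the S sum 8.12 and 10.8, and Tubb4b 21.6 and 1.76. They held 186 of the 494 P4 UMI of Tubb4b and 12 of the 89 of Plk4. The authors' merged clusters joined these 6 and 8 further P4 cells with 197 adult cells in merged cluster 0. In those 14 P4 cells the G2/M sum without Tubb4b was 32.2 (28.9 to 35.9), against 23.1 (22.4 to 23.9) in the 225 P4 cells of merged cluster 1, and the 197 adult cells that shared merged cluster 0 had 2.93 (2.498 to 3.41). The S sum without Top2a was 6.39 in the 14 cells and 9.62 in the 225, a ratio of 0.664 (0.512 to 0.849).

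The members did not all share in that. Of 30 G2/M members with at least 20 UMI, 10 had an interval above 1 in the 14 cells, beside 10.7% of 8194 genes, and 1, Cdca3, below 1, beside 5.41%. Cdk1 had 24 UMI in the 14 cells and 109 in the 225, a ratio of 3.39 (2.08 to 5.31), Plk4 had 15 and 68 UMI, 3.40 (1.80 to 6.00), and Smc4 22 and 101 UMI, 3.35 (2.01 to 5.36). Aurka, the spindle pole kinase, had 7 and 20 UMI (5.39, 1.93 to 13.3) and Anln, anillin of the contractile ring, 7 and 16 UMI (6.74, 2.34 to 17.3). Hmgb2 had 81 and 1219 UMI and a ratio of 1.02 (0.807 to 1.28), and the interval of Ube2c, with 5 and 126 UMI, included 1 (0.611, 0.195 to 1.46). These are 14 cells of 1 library, and the named members were chosen after their values were seen. Of the S members, Top2a was higher (2.05, 1.25 to 3.21) and Dut lower, with 6 and 228 UMI (0.405, 0.147 to 0.896).

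P4 cells split by single transcripts had close sums. In 16 P4 cells with a thinned UMI of Foxj1, the multiciliated cell factor, the G2/M sum without Tubb4b was 23.3 at full depth, against 23.9 in the 247 without, a ratio of 0.978 (0.875 to 1.09), and the S sum was 9.64 against 10.7 (0.8999, 0.756 to 1.06). In 37 P4 cells with a thinned UMI of Wt1, a transcription factor of the developing urogenital tract, the G2/M sum was 26.0 against 23.5 in the 226 without, a ratio of 1.11 (1.02 to 1.21) at full depth and 0.9504 (0.735 to 1.21) after thinning, and the S sum was 10.2 against 10.7.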

How the data were processed

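The authors deposited raw counts (UMI per gene and cell) for an adult, a P4 and a merged table, and a cluster number per cell. The submitters' processing notes name Cell Ranger, Seurat 2.3.4 and mm10 but not the role of each; filters on cells are not given in the sources used here, and no doublet caller was run here. Counts were taken over the genes in both single tables, which left out 1.79% of adult and 13.4% of P4 UMI, once per adult barcode. Each cell that reached 1000 UMI was reduced to that number by drawing without replacement (seed 11), in Python 3.11.15 with numpy 2.4.6, pandas 2.3.3 and scipy 1.17.1.

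Levels have exact 95% Poisson intervals, ratios exact conditional intervals and shares exact Clopper-Pearson intervals, all for counting error only. A log2 fold adds a pseudocount of 0.1 per 10000 to each level, and counts of genes by 2-fold use that scale; a ratio in the text has no pseudocount. A ratio against 0 counts is a bound that takes 3 counts over the group as the floor. Counting of genes by fold was tested on simulated data. There every cell of an age was drawn from the same expression profile, so the test did not cover differences between cells. Levels named without thinning are at full depth, where cells with more UMI weigh more.

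The S and G2/M members, the other gene lists and the marker lists were chosen with earlier results of these data known. Between the ages the members named were those with the largest folds and at least 20 thinned UMI on the higher side. Other members were named from their full counts after these were seen, as ends of a range or as parts of a step. The choice of cells by S genes, the full-depth levels in co-detection, the 6 cells above 30 multiciliated marker UMI per 10000, and the 14 cells of merged cluster 0 were added after seeing the data. Cdh1 was left out of the list of entry and exit genes after its value (higher in the adult library) was seen, because by its mouse symbol it is E-cadherin; the cell cycle factor of that name is Fzr1, which is in the list. Top2a stands with the S genes because of its place in the list. Promoters come from RefSeq on GRCm38.p6.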

Additional observations from a re-analysis of the deposited data

How the results depend on the processing

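Of 102 alternative values, 78 stayed within the limits set for an unchanged value, 22 moved and 2 reversed. No paired analysis was possible because each age has 1 library and no replicate numbers, and no replicate could be left out. The S difference between the ages stayed within its limits under all 12 alternatives, with a log2 fold from -1.90 to -1.44. The G2/M log2 fold between the ages, -1.09, was -0.83 over all genes of each table, -0.83 without Hmgb2, -1.38 with no thinning, -2.62 without Tubb4b and -2.96 without Tubb4b and Hmgb2. For adult cluster 1 over 0, the G2/M log2 fold of 1.53 was 1.98 at 500 UMI per cell, -0.47 without Tubb4b and -1.01 without Tubb4b and Hmgb2, so its direction rested on Tubb4b. The S value for these clusters, -0.46, was 0.23 at 500 UMI. For P4 cluster 1 over 0, the G2/M value of -0.15 was -0.47 at 500 UMI. Of 11 members measured 9 were at least 2-fold lower in the adult; it was 1 of 2 with a filter of 25% of cells, 3 of 4 at 500 UMI, 23 of 28 at 2000 UMI, 37 of 58 with no filter and 43 of 49 with no thinning. It was 5 of 6 without cells that have 2 or more non-epithelial markers, and 5 of 8 without the 5% of cells with the most UMI, so the count follows how many members pass the filter. The share of P4 cells with at least 3 G2/M UMI, 26.2%, was 16.3% without Hmgb2, 20.9% over all genes, 11.4% at 500 UMI, 54.9% at 2000 UMI and 92.8% with no thinning; it was 47.9% for at least 2 UMI and 11.03% for at least 5. Apart from the settings that state their own change of depth, genes or cells, the cause was not tested.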
